A study of Mus musculus with 36 samples.

Results

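Reg3g encodes a C-type lectin that the intestinal epithelium secretes into the lumen. The protein binds peptidoglycan, kills Gram-positive bacteria and helps to hold the microbiota away from the epithelial surface. Its transcription in the small intestine is known to be low without microbes and to depend on bacterial recognition through MyD88 and on interleukin-22 acting through STAT3. In the RefSeq mouse annotation (GRCm38.p6) Reg3g is a protein-coding gene that stands at the end of a row of related genes, beside Reg1, followed by Reg2, Reg3a, Reg3d and Reg3b.

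The transcript was read with TaqMan assay Mm00441127_m1, which is 1 of 224 assays on the custom OpenArray card. The deposited table lists assays by catalogue number only and pairs none of them with a gene. The name Reg3g for this number is the catalogue's and could not be checked against these files, and the other assays are given by number. The assay was chosen by its levels in these groups, since earlier results of these data had the conventional group above the mono-associated groups. Its levels in the groups are therefore described here and not tested.

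The samples are mouse ileal mucosa, from the distal end of the small intestine, in 4 groups of 9. Germfree mice, without microbes, are the control. The mono-associated groups carry either of 2 strains, E. coli CEC (the labels leave CEC unexplained) or the probiotic E. coli Nissle. Conventional mice, labelled CV, carry an ordinary complex microbiota. The labels give colonisation as 21, without a unit, for the mono-associated samples and no value for the others. Mouse strain, age and sex are not stated in the labels, nor whether the conventional mice were reared like the others, so rearing and microbiota cannot be told apart. The design text speaks of pooled RNA while the titles number the samples singly, so each sample may be a mouse or a pool. The p-values therefore cover only the variation among the samples at hand, part of which may be technical. Markers of the mucosal cell types could not be read, since the table names no genes.

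Values are cycle thresholds (Ct), the PCR cycle at which a well's fluorescence crosses a threshold, so a lower Ct means more template. The log2 relative level used below is the average Ct over 146 assays, those with a Ct in all samples, minus the assay's own Ct, so 1 unit is a doubling if amplification is complete. A sample gave a Ct for 214 to 222 assays, with lower numbers for Nissle replicate 6 (175) and CEC replicate 6 (198). CEC replicate 7 was measured for 217 assays but stood apart from its group. It departed by over 3 log2 units from the median of CEC samples in 32 assays, 22 of them lower and 10 higher, against at most 7 in any other sample. Results that turn on it are given with and without it.

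Reg3g was detected in all 36 samples. It was most abundant in conventional mice, at 8.0 ± 0.77 log2 units (SD, n = 9), and least abundant in germfree mice, at 4.81 ± 0.25 (SD, n = 9). The mono-associated groups lay between them and much closer to germfree. The difference between conventional and germfree samples was 3.19 ± 0.56 log2 units (SE of the fit to all 4 groups), or 9.14-fold. Leaving out CEC replicate 7 brought that SE to 0.25. In bulk mucosa, fewer cells that make the transcript and less transcript per cell cannot be told apart.

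In germfree samples the level ran from 4.54 in replicate 30 through a median of 4.70 to 5.30 in replicate 12. Their Ct lay between 16.2 and 16.8, so the germfree samples were the tightest group. In conventional samples the level ran from 6.66 in replicate 2 through a median of 8.23 to 8.93 in replicate 7. Conventional replicates 2 and 3, at 6.66 and 6.91, were below the rest of their group, which began at 7.73. Their Ct values were 14.5 and 14.4, whereas the lowest Ct of the group was 12.2. Even these samples exceeded all 27 samples of the other groups, so the conventional group did not overlap any other.

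In Nissle samples the level was 5.27 ± 0.55 (SD, n = 9), from 4.20 in replicate 7 through a median of 5.19 to 5.95 in replicate 9. Of the 9, 4 were above the highest germfree sample, 4 were within the germfree range and replicate 7 was below it. By these ranges the Nissle group overlapped the germfree group. The mean difference from germfree was 0.46 log2 units, with an SE of 0.56 with all samples and 0.25 without CEC replicate 7.

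In CEC samples the level was 5.03 ± 2.25 (SD, n = 9) and this spread came from CEC replicate 7. That sample read -0.83, at a Ct of 22.6, while the other 8 ran from 4.86 in replicate 10 to 6.27 in replicate 1. Without it the CEC level was 5.77 ± 0.50 (SD, n = 8), with a median of 5.89. Of these 8, 6 were above the highest germfree sample and replicates 6 and 10 were within the germfree range. The difference from germfree was 0.23 ± 0.56 log2 units (SE) with all samples and 0.96 ± 0.26 without CEC replicate 7, a 1.94-fold difference.

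**Figure D1:**
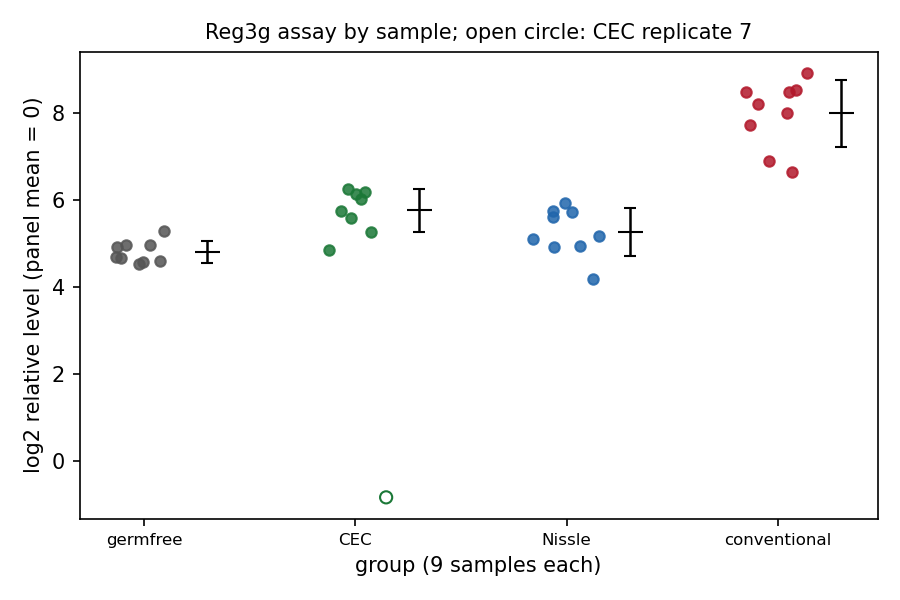
Log2 relative level of the Reg3g assay (vertical axis, mean of the 146 scaling assays set to 0) in each sample of the 4 groups. Dots are samples, the open circle is CEC replicate 7, and the bars give mean and SD without it. All 9 conventional samples lie above 6.6 and all others below 6.3.

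The order of the group means was therefore set by 1 sample at its lower end. With all samples it ran germfree, CEC, Nissle, conventional, and without CEC replicate 7 it ran germfree, Nissle, CEC, conventional. Germfree, Nissle and CEC overlapped their neighbours in either order, and only the step to conventional was free of overlap. Conventional exceeded the mean of the mono-associated groups by 2.85 ± 0.48 log2 units (SE) with all samples and by 2.48 ± 0.22, or 5.58-fold, without CEC replicate 7. By quantile normalization the small differences from germfree changed sign, to -0.19 for CEC and -0.05 for Nissle with all samples, and the conventional difference was 2.34. Scaling to the 20 steadiest assays moved the median of all assays tested between conventional and germfree from -0.08 to 0.17, and Reg3g then differed by 3.45.

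The gene was chosen by its conventional against its mono-associated levels, and that contrast does not use the difference between the strains. Nissle minus CEC was 0.24 ± 0.56 log2 units (SE; 95% confidence interval -0.90 to 1.37), and the test did not call it (limma, adjusted p = 0.886 over 216 assays). The background of the comparison was 0.463% of assays called. Without CEC replicate 7 the sign turned, to -0.50 ± 0.26 (95% confidence interval -1.03 to 0.03; limma, adjusted p = 0.698), where limma called 0 of 215 assays (13 had an unadjusted p under 0.05). An exact permutation test of Reg3g alone (two-sided) gave p = 0.966 with all samples and p = 0.0700 without that one. Both intervals include 0. The second lies mostly below 0, but CEC replicate 7 was known to stand apart when it was left out. The values without it are therefore not independent of that choice.

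Within a group the samples share a colonisation label but differ in Reg3g, and the next question was which assays differ with it. Each other assay was fitted on group and on the Reg3g level, with 1 slope for all groups, so that only deviations from the group means count. With all 36 samples 90 of 215 assays were called (limma, adjusted p under 0.05), or 41.9%. Of these, 32 had a positive slope (14.9%) and 58 a negative slope (27.0%). Once CEC replicate 7 was left out, the same fit called 2 of 214, both positive, or 0.935%. It called 0 negative slopes, with 10 at an unadjusted p under 0.05, while a permutation of samples within groups called 2 positive and 1 negative. The negative one was Mm00530567_m1, which limma did not call. Its within-group Pearson r was -0.52 and Spearman rho -0.59 over 34 samples (permutation adjusted p = 0.0243 for r). With all samples its r was 0.58. Only 1 assay, Mm00440616_g1, was called in both limma fits.

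The count of 90 rested on CEC replicate 7. With all 36 samples a permutation of Reg3g values within groups, which does not assume even residuals, called only Mm00440616_g1 (1 positive and 0 negative). Where CEC replicate 7 sets r, that permutation can hardly give a small p. Mm00461434_m1, for example, had an r of 0.78 with a permutation p of 0.109. Its count of 1 therefore cannot decide how many assays follow Reg3g. The median absolute within-group r was 0.34 with all samples and 0.11 without CEC replicate 7, and 72 assays against 4 exceeded 0.5 in size. Mm00487724_m1, the second highest by r with all samples, fell from a within-group r of 0.87 to 0.13. Mm00507711_m1, the lowest, went from -0.85 to -0.22, and Mm00449604_m1, the next, from -0.82 to -0.27. None of these 3 assays was called in the fit without CEC replicate 7 (limma, adjusted p = 0.996, 0.906 and 0.729).

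**Figure D2:**
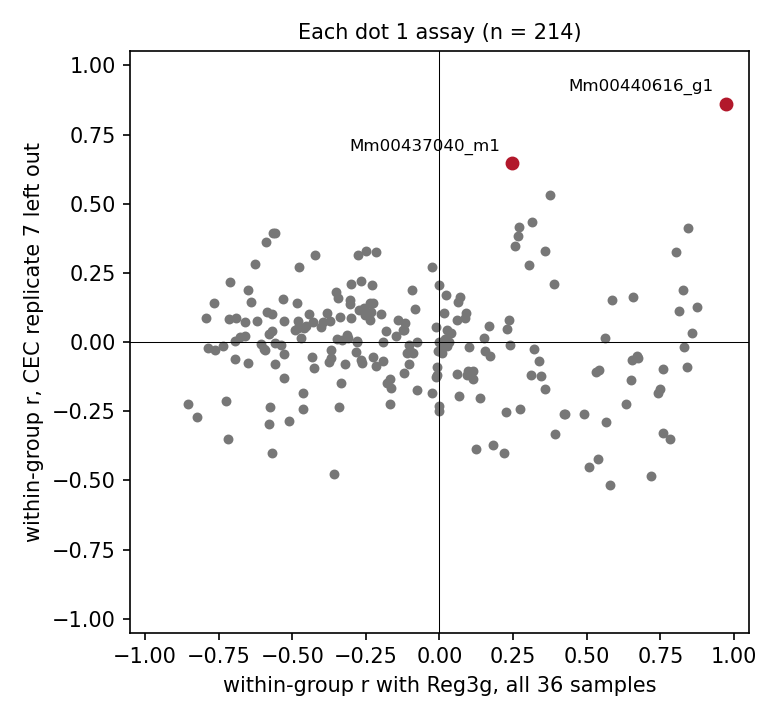
Pearson correlation with Reg3g across deviations from group means, for each of 214 assays, with all 36 samples (horizontal axis) and without CEC replicate 7 (vertical axis). Mm00440616_g1 is high on both axes (0.97 and 0.86), Mm00437040_m1 rises from 0.25 to 0.65, and most other dots spread along the horizontal axis and shrink on the vertical axis.

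Mm00440616_g1 followed Reg3g with a common slope near 1, though less closely among CEC samples. The common slope was 1.0 ± 0.11 log2 units per log2 unit of Reg3g without CEC replicate 7 (SE; limma, adjusted p = 2.72e-08). The fit of all samples gave 1.09 ± 0.05 (limma, adjusted p = 1.36e-19). Across the 35 samples the within-group Pearson r was 0.86 and Spearman rho was 0.85, each with a permutation p of 1e-05, the smallest that 100000 resamples can give. The adjusted p over 214 assays was 0.00214 for r. Leaving out the 2 samples farthest from the median, conventional replicates 2 and 3, r was 0.79. Taken group by group, with no further test, r was 0.98 for conventional, 0.93 for Nissle, 0.74 for germfree and 0.56 for CEC samples. Fitted separately without CEC replicate 7, the slopes were 1.38 for germfree, 1.31 for Nissle, 1.0 for conventional and 0.44 for CEC samples, and the test of unequal slopes did not call the assay (limma F test, adjusted p = 0.275).

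The slope of Mm00440616_g1 was not called under quantile normalization, where it was 0.51 (limma, adjusted p = 0.122). Under every other alternative without CEC replicate 7 it was called, with slopes of 0.96 to 1.10. The difference in raw Ct between the assays needs no scaling, and its mean differed between groups. Mm00440616_g1 crossed the threshold later than Reg3g by 0.66 ± 0.33 cycles (SD, n = 9) in germfree and by 0.81 ± 0.17 (SD, n = 9) in conventional samples. The gap was 0.33 ± 0.33 (SD, n = 9) in Nissle and 0.18 ± 0.43 (SD, n = 8) in CEC samples without replicate 7. In CEC replicate 7 Mm00440616_g1 fell with Reg3g, to -1.72 against 4.83 to 6.08 in the rest of the group.

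The lowest samples for Reg3g among conventional and Nissle mice were also the lowest for Mm00440616_g1. In conventional mice Mm00440616_g1 ran from 5.71 in replicate 2 and 6.25 in replicate 3 to 8.01 in replicate 10. In Nissle mice it ran from 3.62 in replicate 7 through a median of 4.95 to 5.81 in replicate 5. In germfree mice its highest sample, replicate 12 at 5.10, was also the highest for Reg3g. CEC mice followed this order less: replicate 10, the lowest of the 8 for Reg3g at 4.86, was at 5.51 for Mm00440616_g1, and replicate 9, at 6.19 for Reg3g, was at 5.34.

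The slope that found Mm00440616_g1 did not use its group means, and these were tested. Likeness to Reg3g across samples, described below, also picked this assay and does use group means. Reg3g was itself chosen for its group levels, so these p-values are not independent of that choice. It was higher in conventional than in germfree samples by 3.04 ± 0.63 log2 units (SE; limma, adjusted p = 0.000411), where 25.9% of assays were called. In the fit without CEC replicate 7, where 33.5% were called, the SE was 0.29 (adjusted p = 2.74e-10). All 9 conventional samples were above every germfree sample. With CEC the difference from germfree was 0.63 ± 0.63 (limma, adjusted p = 0.582) in the full set, where 5.09% of assays were called. It was 1.44 ± 0.30 (adjusted p = 0.00142) without CEC replicate 7, where 26.0% were called, and 7 of 8 CEC samples were above the highest germfree sample. For Nissle the same difference was 0.80 in either fit, with an SE of 0.63 in the full set (limma, adjusted p = 0.469; 7.41% of assays called). Leaving out CEC replicate 7 brought the SE to 0.29 (adjusted p = 0.0585; 16.3% called). Against germfree, then, Mm00440616_g1 was called with conventional bacteria and, once CEC replicate 7 was left out, with CEC. With sample quality weights in the fit of all samples, CEC (1.52; limma, adjusted p = 0.000392) and Nissle (0.88; adjusted p = 0.0385) were both called. Without weights, Nissle minus CEC for this assay was 0.17 ± 0.63 (SE; limma, adjusted p = 0.906) with all samples. It was -0.64 ± 0.30 (adjusted p = 0.698) without CEC replicate 7, so a difference between the strains was not called.

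**Figure D3:**
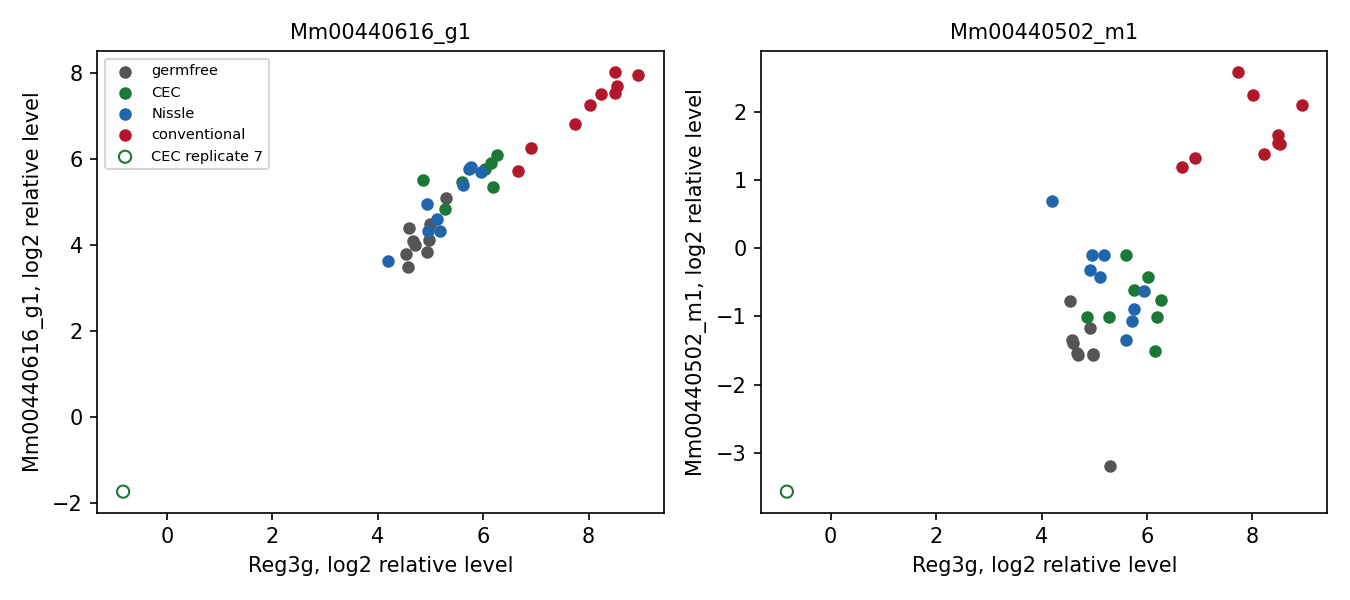
Log2 relative level of Mm00440616_g1 (left) and Mm00440502_m1 (right) against that of Reg3g, each dot 1 sample coloured by group, with CEC replicate 7 as the open circle. Mm00440616_g1 rises with Reg3g inside every group, least closely in the 8 CEC samples without replicate 7 (r = 0.56). Mm00440502_m1 separates conventional samples from the rest but does not rise with Reg3g inside germfree or Nissle samples.

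The other assay that the limma slope fit called without CEC replicate 7 was Mm00437040_m1, whose slope was 0.43 ± 0.09 (SE; limma, adjusted p = 0.00738). The within-group r was 0.65 and rho 0.59 over 35 samples (permutation p = 0.00034 and 0.00076; adjusted p = 0.0243 for r), and r was 0.54 without conventional replicates 2 and 3. The r of single groups was 0.89 for CEC, 0.85 for conventional, 0.40 for germfree and 0.03 for Nissle samples. The call was lost without conventional replicate 7 (slope 0.36; limma, adjusted p = 0.0594) and under quantile normalization (0.43; adjusted p = 0.122). With CEC replicate 7 kept, r was 0.25 and the slope was not called (limma, adjusted p = 0.260). That sample, at -3.80, was close to the middle of its group for Mm00437040_m1.

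Mm00437040_m1 was called as higher in each colonised group. It was higher than in germfree samples by 0.65 ± 0.17 log2 units with CEC (SE; limma, adjusted p = 0.0187), by 0.57 ± 0.17 with Nissle (adjusted p = 0.0359) and by 0.67 ± 0.17 in conventional samples (adjusted p = 0.00371). Leaving out CEC replicate 7 kept these calls (limma, adjusted p = 0.00941, 0.0224 and 0.00261). Conventional minus the mono-associated mean was 0.06 ± 0.15 (limma, adjusted p = 0.822; 21.3% of assays called), a difference that the test did not call. The Nissle call was kept in 31 of 49 alternatives and was lost, for example, under median scaling (limma, adjusted p = 0.103) and raw Ct (0.0634), while the CEC call was lost without CEC replicate 9 (adjusted p = 0.0508) or germfree replicate 22 (0.0553).

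**Figure D4:**
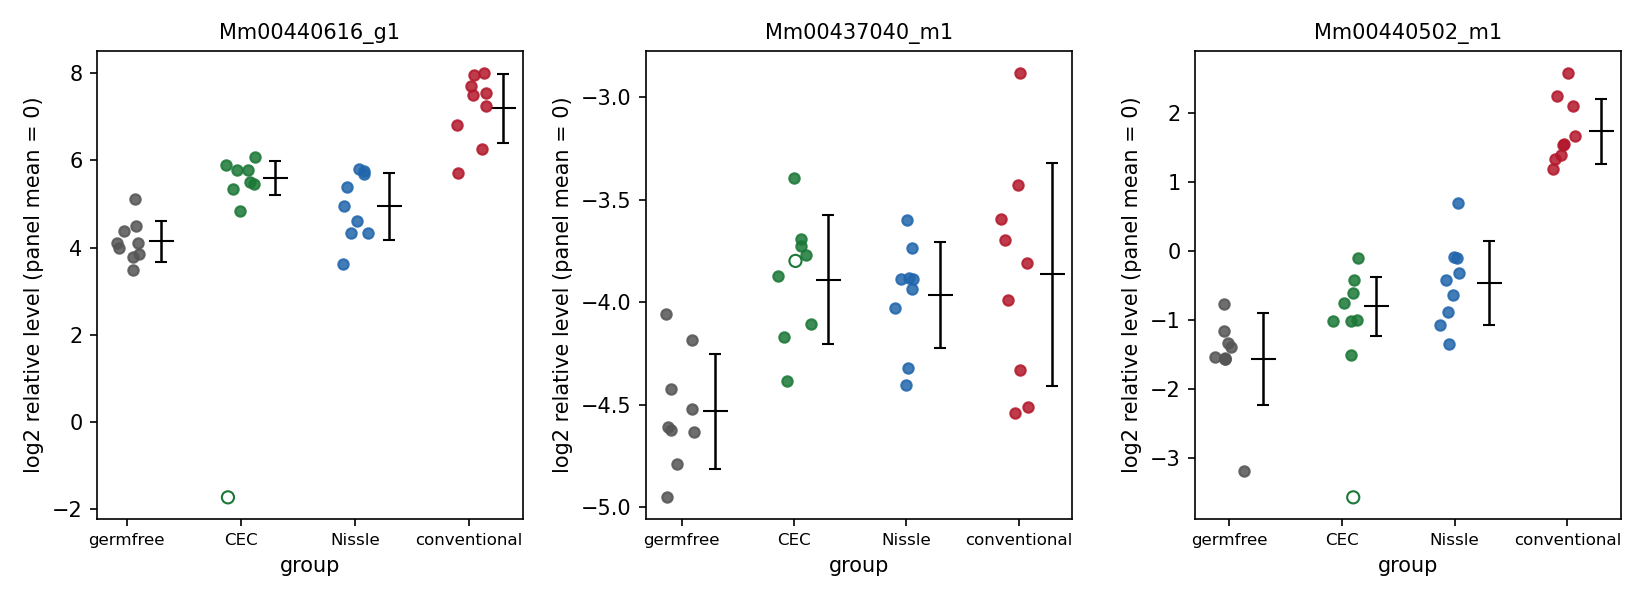
Log2 relative level by sample and group for the 2 assays that the limma slope fit called without CEC replicate 7, and for Mm00440502_m1. The open circle is CEC replicate 7, and the bars give mean and SD without it. Mm00440616_g1 and Mm00440502_m1 step up mainly in conventional samples, and Mm00437040_m1 steps up by 0.57 to 0.67 in all 3 colonised groups.

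Likeness of the whole pattern was measured as the root mean square difference from Reg3g over all samples, after the germfree mean of each assay was subtracted. The nearest of the 145 other assays measured in every sample was Mm00440616_g1, at 0.42 log2 units, and Mm00440502_m1 was next at 1.07. In the 35 samples without CEC replicate 7 they stayed first and second, at 0.43 and 0.89. Conventional minus germfree was 3.29 log2 units for Mm00440502_m1 and 3.19 for Reg3g, given without a test since likeness alone chose Mm00440502_m1.

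Inside the groups the relation of Mm00440502_m1 to Reg3g turned with CEC replicate 7. With all samples the pooled r was 0.49 and rho -0.04 (permutation adjusted p = 0.194 for r), with 0.89 for CEC samples, and the slope of 0.29 was called (limma, adjusted p = 0.00896). Without that sample the slope was -0.26 and was not called (limma, adjusted p = 0.761). Its pooled within-group r over 35 samples was -0.26 and rho -0.30 (permutation p = 0.119 and 0.10; adjusted p = 0.710 for r). The r of single groups was -0.87 for Nissle, -0.78 for germfree, -0.05 for CEC and 0.34 for conventional samples. Germfree replicate 12 stood apart at -3.19 for Mm00440502_m1, against -1.56 for the next, and was the highest germfree sample for Reg3g. The germfree r was not computed without it. Leaving out conventional replicates 2 and 3, the pooled r was -0.56. The test of unequal slopes between groups did not call it (limma F test, adjusted p = 0.0601). That limma test, run without CEC replicate 7, called 0 of 214 assays (36 had an unadjusted p under 0.05), and with that sample kept it called 34 of 215, or 15.8%, among them Mm00440502_m1 (adjusted p = 0.000383) and Mm00437040_m1 (0.0249). For Mm00437040_m1 it gave an adjusted p of 0.320 without that sample.

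Reg3g had the 4th largest rise of 216 assays between germfree and conventional samples, behind Mm00470560_m1, Mm00472168_m1 and Mm00440502_m1 and ahead of Mm00440616_g1. Within groups neither of the top 2 assays was called as following it, with or without CEC replicate 7. Without CEC replicate 7 the within-group r with Reg3g was -0.05 for Mm00470560_m1 (n = 35) and 0.12 for Mm00472168_m1 (n = 34), each with a permutation adjusted p of 0.996. With all samples r was 0.17 (n = 36) and -0.26 (n = 35), with permutation adjusted p of 0.749 and 0.297.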

How the data were processed

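The authors deposited raw Ct values, with no normalization, per the file headers, and the table's opening line calls it a truncated example. Per the labels' protocols, RNA was isolated with the mirVana kit and cDNA was run on TaqMan OpenArray cards. No label or header states the amplification efficiency or the threshold. A Ct of 40 was treated as missing (291 of 8064 wells). Columns were matched to samples by title, and replicate numbers are those of the titles. The log2 relative level and the fits, with the filter of at least 5 measured samples of 9 in every group, used limma 3.58.1 (R 4.3.3) with the default eBayes. P-values were two-sided and adjusted by Benjamini-Hochberg over all assays of a fit, with a threshold of 0.05. The scaling assays stayed the same when a sample was left out. SEs come from the fit, SDs from the samples.

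The slope fit was tested on simulated data with known slopes. It missed shallow slopes more often than steep ones, so an assay not called may still follow Reg3g with a shallow slope. Correlations were permuted within groups (100000 resamples).

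The gene, the comparisons and the lists were chosen with earlier results of these data known. Assays named were the 2 highest and 2 lowest by within-group r among those called, with and without CEC replicate 7, and the 2 nearest to Reg3g. Mm00470560_m1, Mm00472168_m1 and Mm00530567_m1 were named after their values were seen. Gene lists of antimicrobial, interleukin-22 and oxidase genes and of cell type markers could not be used without gene names. Alternatives covered the scaling, undetermined and late wells, the filter, the eBayes settings, sample weights, a replicate block and leaving out each sample. The number of samples limits the precision.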

Additional observations from a re-analysis of the deposited data

Results flagged for a closer look

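In the 7 assays described, 28 groups of samples were screened for a lowest or highest sample far from the rest of its group, and 9 such samples were found. Chance gives about 1 in 20 groups, but CEC replicate 7 was known to stand apart and some of these assays were chosen by an r that it sets, so the number found is not evidence of an excess. The gap is given as a share of the group's range.

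CEC replicate 7 accounted for 6 of them. It was lowest for Reg3g (Mm00441127_m1), at -0.83 against 4.86 for the next sample (gap 0.80), and for Mm00440616_g1, at -1.72 against 4.83 (gap 0.84). It was also lowest for Mm00487724_m1, at -2.47, and for Mm00440502_m1, at -3.57. It was highest for Mm00507711_m1, at 5.88 against -0.26, and for Mm00449604_m1, at 0.35 against -7.34. The cause was not tested.

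The other samples were germfree replicate 12 for Mm00440502_m1 (-3.19 against -1.56), Nissle replicate 6 for Mm00507711_m1 (-2.08 against -0.98) and Nissle replicate 9 for Mm00449604_m1 (-9.72 against -7.88). Germfree replicate 12 was also the highest germfree sample for Reg3g.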

How the results depend on the processing

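Leaving out 1 sample at a time moved Nissle minus CEC for Reg3g between -0.50 and 0.39 and CEC minus germfree between 0.0721 and 0.96. The values of -0.50 and 0.96 came without CEC replicate 7, and 0.0721 without CEC replicate 1. Counts of following assays ran from 2 to 34 positive and 0 to 65 negative, and without CEC replicate 7 from 1 to 3 and 0 to 2. The lower positive count came without conventional replicate 7, and the negative calls without Nissle replicate 6 (2) or germfree replicate 31 (1). Assays with unequal slopes ran from 0 to 4, and were 34 with CEC replicate 7 kept. Sample quality weights gave -0.43 for the strains (limma, adjusted p = 0.841, in a range of 0.698 to 0.988 over the alternatives), 3 positive and 1 negative assays with all samples, 5 negative ones without CEC replicate 7 and 5 unequal slopes. Without CEC replicate 7 and Nissle replicate 6 the values were -0.45 for the strains, 0.96 for CEC, 2 positive and 2 negative. Scaled to the assays measured in the samples left, a repeat added after seeing the data, they were -0.42, 0.88, 3 and 3, with 3 unequal slopes. Raw Ct gave 57 positive, 23 negative and 1 unequal slope. Quantile normalization gave 2.34 for conventional minus germfree, 0 positive assays without CEC replicate 7 and 8 unequal slopes. Assays measured in every sample alone gave 21 positive and 1 unequal slope, from fewer assays tested, and median scaling gave 3 unequal slopes. Permutation gave 1 positive and 0 negative assays with all samples and 1 negative without CEC replicate 7.

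The 43 scaling assays among the first 112 lines of the table and the 103 among the last 112 differed in mean Ct by -0.01 to 1.15 cycles from sample to sample. With each set of 112 lines scaled to its own assays, added after seeing the data, Mm00440616_g1 kept a slope of 1.01 (limma, adjusted p = 1.89e-08) and 6 assays had unequal slopes.

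Deviations of same-numbered samples from their group means correlated above 0.1 in 9 of 27 pairs (median 0.02). The CEC mean included CEC replicate 7, and differently numbered samples were not compared. These correlations therefore cannot decide whether the replicate numbers pair the samples. With a replicate block the slope fit without CEC replicate 7 called 1 assay, Mm00440616_g1, at a slope of 0.99 (limma, adjusted p = 2.4e-05). It did not call Mm00437040_m1 (0.48, limma, adjusted p = 0.0863). In the group fit of all samples the block left germfree replicate 10 alone to link germfree to the other groups. The other germfree numbers occur in no other group, so this fit cannot decide those calls. Conventional minus germfree was 3.97 for Mm00440616_g1, with an SE of 1.84 against 0.63 without the block. For Mm00437040_m1 the differences from germfree were 0.62 for conventional, 0.60 for CEC and 0.49 for Nissle. The blocked fit of unequal slopes could not be made, since most germfree numbers occur once.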

Other observations

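Reg3g and Mm00440616_g1 stand on adjacent lines of the deposited table. Of the other 9 assays within 5 lines of Reg3g, none was called in the slope fit without CEC replicate 7. The highest within-group r among those 9 was 0.53, for Mm00444947_m1 (limma, adjusted p = 0.143), and the lowest was -0.48, for Mm00489956_g1 (adjusted p = 0.151).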
